A study of Sus scrofa with 4 samples.

Results

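The genes described here encode ligands and receptors of the fibroblast growth factor (FGF) family in porcine cells before and after reprogramming. The list held 10 genes, chosen by name with earlier results of these data known, so its counts beside all genes are a description. They were the secreted ligands FGF2, FGF7, FGF8, FGF10 and FGF19, the intracellular family member FGF13 and the receptors FGFR1, FGFR2, FGFR3 and FGFR4. Their rows were looked up among the 25880 genes of the deposited count table, by pig Ensembl identifier and otherwise by position on the Sscrofa11.1 assembly. Of the 10 genes, 9 were found, 8 by identifier and 1 (FGF13) by position. FGF7 had no row of its own, and its gene span overlapped rows of other genes, which are described at the end.

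RNA was sequenced from 2 induced pluripotent stem cell (iPSC) clones at passage 3, from 1 culture of induced neural stem cell-like cells (iNSLCs) at passage 1 and from 1 culture of fibroblasts at passage 1. The fibroblasts came from the ear skin of 1 post-neonatal pig, N01F, and every other culture was derived from them. The iNSLCs grew as domed colonies in NSM, a medium that the authors had earlier reported for putative naive-state pluripotent cells. Per the paper NSM was supplemented with chemical inhibitors, which the text used here does not name. Before culture in NSM the fibroblasts were transfected with the EP-B set of episomal vectors. These carried OCT4, NANOG, SOX2, LIN28, KLF2, KLF4, GLIS1, KDM4D, L-MYC, EGFP and a mouse Trp53 mutant with dominant-negative action, so no FGF gene was among the transgenes. The iPSC clones arose from such cells in an embryonic stem cell medium based on basic FGF (the FGF2 protein) and serum replacement, to which activin A, IWP2 (which blocks WNT secretion) and TGF-β1 were added. The iPSCs therefore differed from the iNSLCs in medium and passage as well as in cell state, and received FGF2 protein from outside. From the fibroblasts they also differed in passage. For marmoset cells the paper describes a fibroblast medium before induction and mouse feeder cells during it. The text used here does not restate either for the pig. The study reported the vectors gone, by genomic PCR, at a later passage than that sequenced here. Their state at passage 3 is not given. With all cultures from 1 animal, p-values measured the spread between the 2 clones only, and the lone iNSLC and fibroblast libraries were assumed to vary as the clones did.

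Secreted FGFs bind receptor tyrosine kinases at the cell surface together with heparan sulphate chains, and the activated receptor signals through the adaptor FRS2, the RAS-ERK cascade and phospholipase C gamma. FGF2 is a standard supplement of human pluripotent stem cell medium and a mitogen for fibroblasts and neural stem cells. FGF8 acts in gastrulation and brain patterning, FGF10 is a mesenchymal ligand that drives outgrowth of lung and limb, and FGF19 is an endocrine ligand that signals mainly through FGFR4 with the coreceptor beta-Klotho. FGF13 belongs to the FGF homologous factors, which stay inside the cell and bind voltage-gated sodium channels and microtubules.

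The depth was 21640374 and 41296933 counts in iPSC clones 1 and 2, 25784594 counts in iNSLCs and 62421521 counts in fibroblasts. Levels are given as CPM, counts corrected for library depth, with scaling by the trimmed mean of M values (TMM). For a gene with 0 counts, the limit that 3 counts set was 0.127 and 0.0656 CPM in the iPSC clones, 0.105 CPM in iNSLCs and 0.0648 CPM in fibroblasts, for counting error only. The labels were checked against marker lists. Of 9 pluripotency markers found, 8 rose in iPSCs relative to fibroblasts, and all 10 fibroblast markers fell. Of 10 neural stem cell markers, 8 were at least 4-fold higher in iNSLCs than in fibroblasts (with at least 1 CPM), where 13.2% of all genes were. The others were ZNF521, 1.45-fold higher, and PAX6, which was lower in iNSLCs (14.55 against 21.53 CPM). By the same size 8 of 9 pluripotency markers and 3 of 7 tested markers of other cell types were higher in iNSLCs. The count was thus not particular to neural genes. The summed level of the 10 fibroblast markers was 903 and 936 CPM in the iPSC clones, 53470 CPM in iNSLCs and 138100 CPM in fibroblasts. The sum was mostly that of COL1A1, COL1A2 and COL3A1. By ratio the iNSLC sum lay nearer to that of fibroblasts. The median log2 ratio of the 10 was -1.24 in iNSLCs against fibroblasts and -5.95 in iPSCs against iNSLCs. The genes differed, as PDGFRA and PDGFRB in iNSLCs lay nearer to iPSCs by ratio, and POSTN was 17.8-fold higher in iNSLCs than in fibroblasts. POU5F1 and NANOG, which the vectors also carry, were at 0 counts in fibroblasts, and LIN28A, likewise carried, had 4 counts there. In bulk RNA, fewer cells of a type and less RNA per cell cannot be told apart. How far cells with fibroblast transcripts contributed to the FGF values of the iNSLC library was not tested.

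Relative to fibroblasts, most FGF ligand genes rose in iPSCs, FGF2 fell, and FGFR4 rose more than the other receptors. In this comparison 6 of the 9 genes rose (FGF8, FGF10, FGF13, FGF19, FGFR1 and FGFR4), 1 fell (FGF2) and FGFR2 and FGFR3 did not pass the edgeR quasi-likelihood test with Benjamini-Hochberg adjustment over 15739 genes. The test called 57.1% of all genes, 29.6% higher and 27.5% lower. Relative to iNSLCs, 5 of the 9 rose (FGF8, FGF10, FGF13, FGF19 and FGFR4) and 0 fell, against 28.1% of all genes called, 14.1% higher and 14.1% lower. At an unadjusted p of 0.05, 6 were higher, now with FGF2, and 0 were lower. The share of all genes at an unadjusted p of 0.05 is not given, here or below. That share is larger than after adjustment, so counts at this threshold cannot be set against the shares above. FGF8, with 0 fibroblast counts, entered the test through the other libraries. DESeq2 called 6 of the 9 higher and 1 lower relative to fibroblasts, where it called 52% of all genes, 27% higher and 25% lower. Relative to iNSLCs it called 4 higher and 0 lower, against 25.2% of all genes. The median log2 ratio over the 9 genes was 2.55 in iPSCs against fibroblasts and 1.29 in iPSCs against iNSLCs, where the medians over all genes tested were 0.13 and 0.00. Both comparisons use the same iPSC libraries and are not independent of each other.

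**Figure D1:**
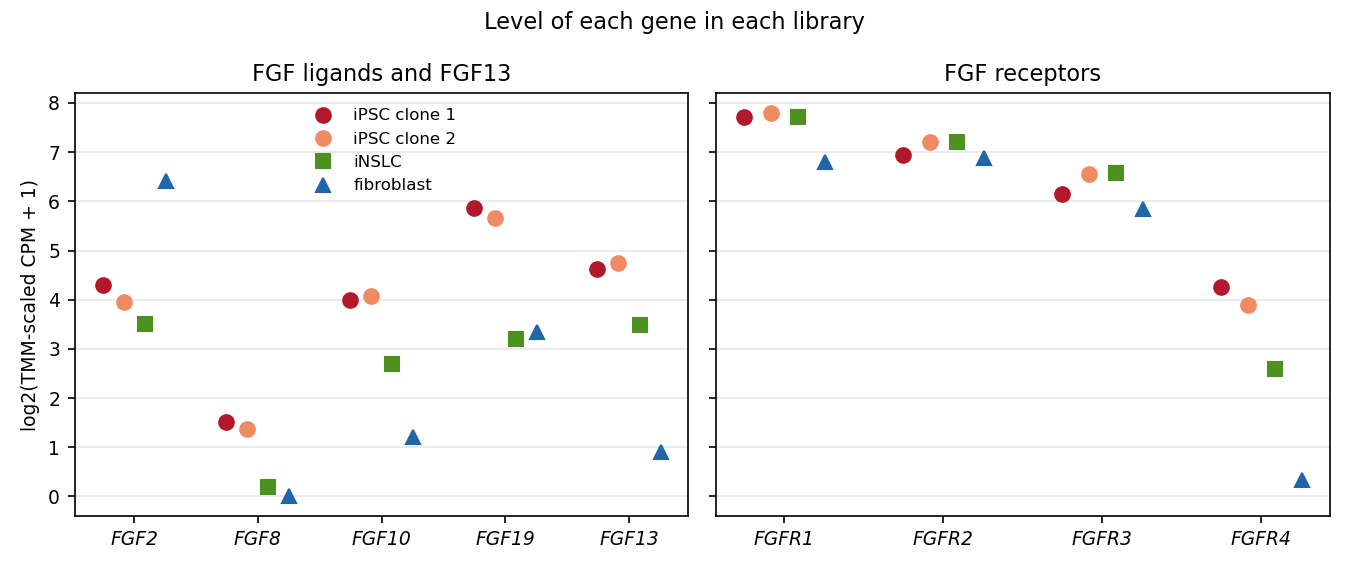
Level of the 9 FGF genes in each library, as log2(TMM-scaled CPM + 1), with 1 point per library (red and orange circles, iPSC clones 1 and 2; green squares, iNSLCs; blue triangles, fibroblasts). FGF2 was highest in fibroblasts (84.4 CPM), and FGF19 in the iPSC clones (57.3 and 49.5 CPM).

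FGF2 (ENSSSCG00000036213, chromosome 8, 101282308 to 101343916, minus strand) was the only ligand gene found among those listed that fell relative to fibroblasts. It had 18.6 CPM in iPSC clone 1, 14.4 CPM in iPSC clone 2, 10.3 CPM in iNSLCs and 84.4 CPM in fibroblasts. The fibroblast library thus lay far above the other 3, and iNSLCs were lowest. In iPSCs FGF2 fell by 2.36 ± 0.19 (SE) on the log2 scale relative to fibroblasts (edgeR adjusted p = 0.000904), a 5.11-fold lower level. Between iPSCs and iNSLCs the log2 ratio was 0.67 ± 0.21, which did not pass (edgeR adjusted p = 0.0801). Of the exonic bases of this row, 807 (26.8%) were shared with NUDT6, an antisense gene on the plus strand that encodes a nudix hydrolase. With the strand setting of the counting unknown, reads of the shared part may have been dropped or mixed. NUDT6 had 3.97 and 3.34 CPM in the iPSC clones, 2.93 CPM in iNSLCs and 9.70 CPM in fibroblasts.

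FGF19 (ENSSSCG00000012871, chromosome 2, 3583027 to 3587825, plus strand) was the most abundant ligand gene in iPSCs. It had 57.3 and 49.5 CPM in iPSC clones 1 and 2, 8.17 CPM in iNSLCs and 9.09 CPM in fibroblasts. The clones lay close together and above both other libraries. FGF19 rose in iPSCs by 2.55 ± 0.19 on the log2 scale relative to fibroblasts (edgeR adjusted p = 0.000707). Relative to iNSLCs it rose by 2.71 ± 0.19 (edgeR adjusted p = 0.00297), 6.54-fold. In iNSLCs the level was 0.898 times that of fibroblasts, with an exact 95% interval for counting error of 0.762 to 1.06.

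FGF10 (ENSSSCG00000016878, chromosome 16, 28694162 to 28777283, minus strand) had 15.0 and 15.8 CPM in the iPSC clones, 5.45 CPM in iNSLCs and 1.30 CPM in fibroblasts. The iPSC clones were highest, iNSLCs intermediate and fibroblasts lowest. FGF10 rose in iPSCs 11.9-fold relative to fibroblasts (log2 ratio 3.57 ± 0.28, edgeR adjusted p = 0.000814). It rose 2.83-fold relative to iNSLCs (edgeR adjusted p = 0.0169), and the ratio of pooled counts had an exact 95% interval of 2.41 to 3.40.

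FGF8 (ENSSSCG00000036146, chromosome 14, 112808107 to 112813870, minus strand) was the weakest of these genes. It had 44 and 73 counts in the iPSC clones, 4 counts in iNSLCs and 0 counts in fibroblasts. This corresponded to 1.86 and 1.60 CPM in the clones and 0.140 CPM in iNSLCs. In the lower clone FGF8 was at least 24.6-fold above the fibroblast level that 3 counts allow, and at least 26.7-fold for the mean of the clones. The edgeR adjusted p was 0.00446 for both clones, and FGF8 entered this test through the other libraries. It rose 12.4-fold relative to iNSLCs (log2 ratio 3.59 ± 0.79, edgeR adjusted p = 0.0341), but with DESeq2 this call was lost (DESeq2 adjusted p = 0.0753). With 4 counts in iNSLCs, the ratio of pooled counts had an exact 95% interval of 4.59 to 45.0.

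FGF13 (ENSSSCG00000022331, chromosome X, 113460199 to 113530948, minus strand), the intracellular member, had 23.8 and 25.9 CPM in the iPSC clones, 10.2 CPM in iNSLCs and 0.864 CPM in fibroblasts. The fibroblast value rested on 40 counts and lay far below the other 3 libraries. FGF13 rose 28.8-fold in iPSCs relative to fibroblasts (log2 ratio 4.84 ± 0.27, edgeR adjusted p = 0.000378) and 2.45-fold relative to iNSLCs (log2 ratio 1.29 ± 0.21, edgeR adjusted p = 0.0165). The row lies at the 3′ end of a longer RefSeq span on this assembly and was named by position.

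Among the receptors FGFR4 changed most, FGFR1 rose relative to fibroblasts, and FGFR2 and FGFR3 did not pass. FGFR1 (ENSSSCG00000015815, chromosome 15, 48053367 to 48106860, plus strand), the main mesenchymal and neural receptor, had 209 and 222 CPM in the iPSC clones, 208 CPM in iNSLCs and 110.0 CPM in fibroblasts. The fibroblast library was the low one, and iNSLCs lay within 1 SD of the clones (216 ± 9.05 CPM, SD, n = 2). FGFR1 rose 1.96-fold in iPSCs relative to fibroblasts (log2 ratio 0.97 ± 0.13, edgeR adjusted p = 0.00343). Against iNSLCs the log2 ratio was 0.05 ± 0.12 (edgeR adjusted p = 0.769).

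FGFR2 (ENSSSCG00000010698, chromosome 14, 131181713 to 131289414, minus strand), whose epithelial splice form is the receptor of FGF7 and FGF10, had 121 and 146 CPM in the iPSC clones, 146 CPM in iNSLCs and 117 CPM in fibroblasts. The fibroblast library and iPSC clone 1 lay side by side, as did iNSLCs and iPSC clone 2. FGFR2 did not pass in iPSCs against fibroblasts (log2 ratio 0.19 ± 0.16, edgeR adjusted p = 0.345) or against iNSLCs (log2 ratio -0.13 ± 0.16, edgeR adjusted p = 0.553). FGFR3 (ENSSSCG00000030827, chromosome 8, 879207 to 895912, plus strand), known for its brake on bone growth, had 69.9 and 92.7 CPM in the iPSC clones, 93.9 CPM in iNSLCs and 56.3 CPM in fibroblasts. The clones were 1.33-fold apart (exact 95% interval for counting error 1.25 to 1.41) and FGFR3 passed neither test (edgeR adjusted p = 0.0825 against fibroblasts and 0.469 against iNSLCs). Scaling by total counts shifted the ratio of library sizes between iPSCs and fibroblasts by 0.57 on the log2 scale relative to TMM. With total counts, FGFR2 (log2 ratio 0.76, edgeR adjusted p = 0.0131) and FGFR3 (log2 ratio 1.10, edgeR adjusted p = 0.00834) passed as higher in iPSCs. Gene counts do not separate the splice forms of these receptors.

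FGFR4 (ENSSSCG00000014047, chromosome 2, 80841543 to 80853791, minus strand), the receptor of FGF19 in liver, had 18.1 and 13.9 CPM in the iPSC clones, 5.06 CPM in iNSLCs and 0.259 CPM in fibroblasts. The fibroblast value rested on 12 counts. FGFR4 rose 61.7-fold in iPSCs relative to fibroblasts (log2 ratio 5.93 ± 0.41, edgeR adjusted p = 0.000592) and 3.16-fold relative to iNSLCs (log2 ratio 1.66 ± 0.30, edgeR adjusted p = 0.0211).

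**Figure D2:**
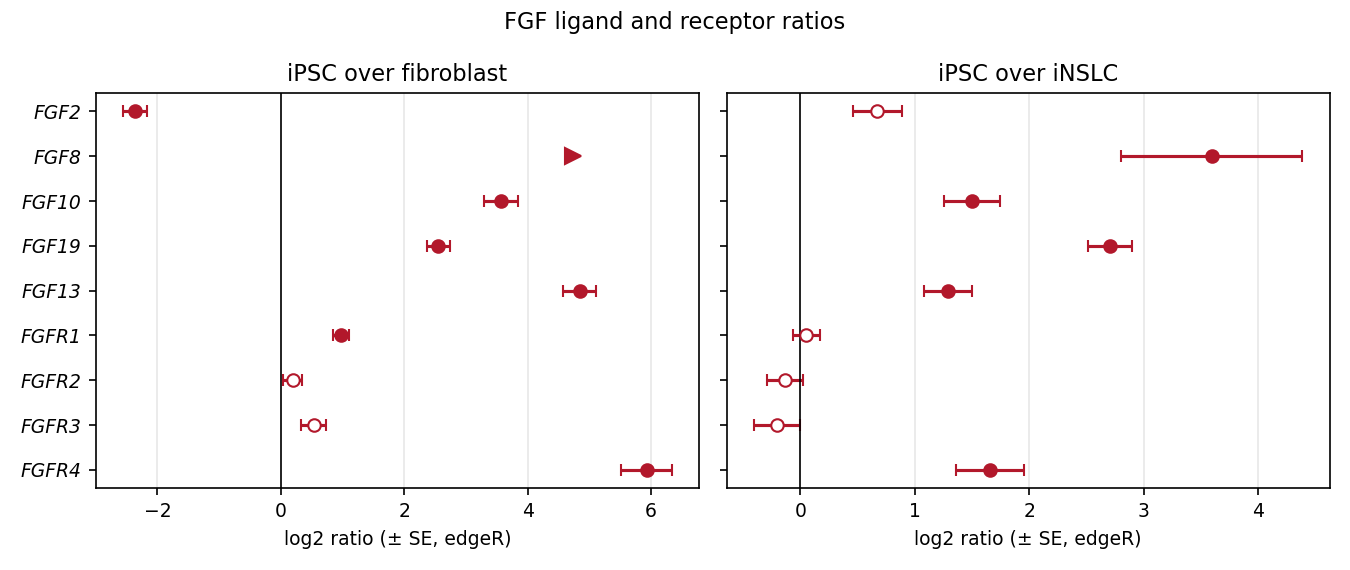
Log2 ratio of the 9 FGF genes in iPSCs over fibroblasts (left) and over iNSLCs (right), with the SE from edgeR. Filled points passed the test, open points did not, and the arrowhead for FGF8 is a lower bound for the mean of the clones (26.7-fold) set by 0 fibroblast counts. FGF2 lay below 0 on the left (-2.36) and FGFR4 was the highest measured ratio there (5.93).

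Levels of different genes were compared within a library as TPM, which corrects for exonic length as well as depth. FGFR1 held 44.1% and 41.2% of the summed receptor TPM in iPSC clones 1 and 2, 40.4% in iNSLCs and 33.5% in fibroblasts. FGFR2 held 34.0% and 36.0% in the clones, 38.0% in iNSLCs and 47.5% in fibroblasts. FGFR1 was thus the leading receptor transcript in the clones and iNSLCs, and FGFR2 in fibroblasts. FGFR3 held between 16.2% and 20.1% in the 4 libraries. FGFR4 held 5.73% and 3.89% in the clones, 1.48% in iNSLCs and 0.119% in fibroblasts. The shares describe the libraries and were not tested.

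**Figure D3:**
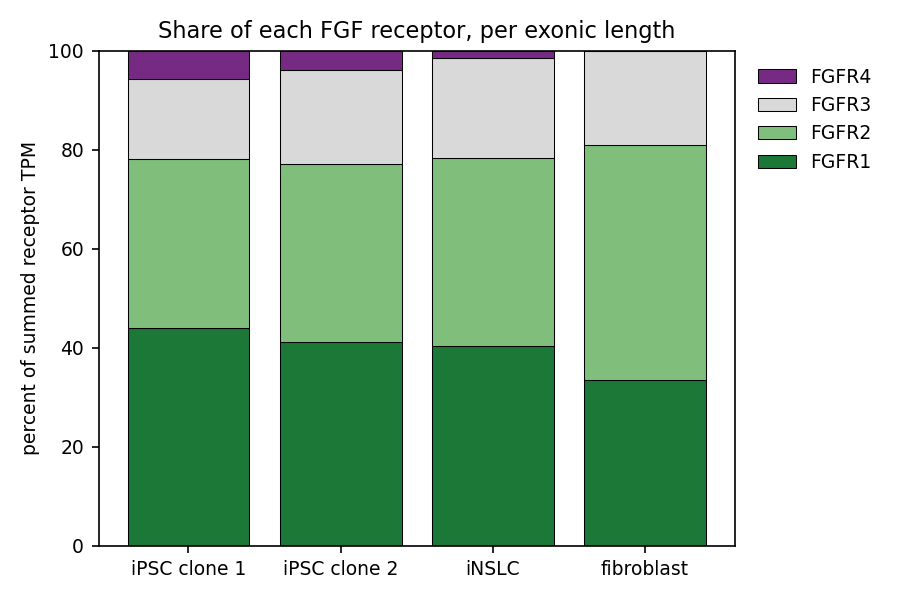
Share of FGFR1 (dark green), FGFR2 (light green), FGFR3 (grey) and FGFR4 (purple) in their summed TPM, as percent, with 1 bar per library. FGFR1 made up 44.1% and 41.2% in the iPSC clones and 33.5% in fibroblasts.

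The iNSLC and fibroblast libraries had no replicate, so their difference is given with counting error only. By a size of at least 4-fold with 1 CPM in the higher library, 4 of the 9 genes differed, where 20.5% of all genes did, 13.2% higher and 7.26% lower in iNSLCs. FGFR4 was 19.5-fold higher in iNSLCs (exact 95% interval 10.8 to 38.7), FGF13 11.8-fold (8.43 to 16.8) and FGF10 4.20-fold (3.10 to 5.76). FGF2 was 8.17-fold lower in iNSLCs (7.26 to 9.22). FGFR1 was 1.89-fold (1.82 to 1.97), FGFR3 1.67-fold and FGFR2 1.25-fold higher. The 3 genes that were higher by this size in iNSLCs passed as higher again in iPSCs relative to iNSLCs. FGF2 had its lowest level of the 4 libraries in iNSLCs.

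Of the 9 genes, 0 were at least 2-fold apart between the iPSC clones, where 4.21% of all genes were. A count of 0 lies near that share. The largest ratios were 1.33 for FGFR3 (higher in clone 2), 1.30 for FGFR4 and 1.29 for FGF2 (both higher in clone 1). FGF10 and FGF13 had ratios of clone 2 over clone 1 of 1.05 (exact 95% interval 0.923 to 1.20) and 1.09 (0.982 to 1.20), which counting error covers.

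Most of the other secreted ligand genes that could be tested were higher in iPSCs than in fibroblasts. Of 13 other secreted ligand genes, 9 had enough counts to be tested. Of these 7 rose in iPSCs relative to fibroblasts and 2 fell (FGF9 and FGF22), where 29.6% of all genes rose and 27.5% fell. DESeq2 called 5 higher and 1 lower. Relative to iNSLCs 0 rose and 1 fell by edgeR, against 14.1% of all genes in each direction. At an unadjusted p of 0.05, for which no share of all genes is given, 6 of the 9 were higher in iPSCs than in iNSLCs. DESeq2 called 1 higher after adjustment (FGF17), where it called 13.7% of all genes higher. FGF6 had 0 counts in every library, and FGF3, FGF20 and FGF23 had 5 or fewer counts in each. Since FGF4, FGF5, FGF16 and FGF17 had 0 fibroblast counts and entered the test through the other libraries, the count of rises is a description.

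FGF17, a close relative of FGF8, had 16.5 and 3.78 CPM in iPSC clones 1 and 2, 0.733 CPM in iNSLCs and 0 counts in fibroblasts. Against the fibroblast floor of 3 counts it was at least 58.4-fold higher in clone 2 and at least 255-fold higher in clone 1 (edgeR adjusted p = 0.0103 for both clones). The clones were 4.37-fold apart (exact 95% interval 3.64 to 5.25), and against iNSLCs FGF17 did not pass (edgeR adjusted p = 0.0698). FGF4, an autocrine ligand of mouse pluripotent cells, had 2.66 and 0.831 CPM in the clones, 1.12 CPM in iNSLCs and 0 counts in fibroblasts (at least 12.8-fold higher in the lower clone, edgeR adjusted p = 0.0146). Its clones were 3.20-fold apart in the same direction as for FGF17. FGF5, a marker of the primed epiblast in mouse, had 1.14 and 2.73 CPM in the clones, 0.209 CPM in iNSLCs and 0 counts in fibroblasts (at least 17.6-fold higher in the lower clone, edgeR adjusted p = 0.00855). FGF16 was at least 15.5-fold higher in the lower clone than the fibroblast floor of 3 counts (edgeR adjusted p = 0.00862 for both clones). FGF9, a ligand of neural and gonadal tissue, went the other way. It had 0.338 and 0.481 CPM in the clones, 3.42 CPM in iNSLCs and 2.38 CPM in fibroblasts, and fell by 3.02 ± 0.49 on the log2 scale in iPSCs relative to iNSLCs (edgeR adjusted p = 0.0169).

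Per exonic length, FGF19 led the secreted ligands in both iPSC clones (102 and 89.8 TPM) and in iNSLCs (15.6 TPM), and FGF2 led in fibroblasts (70.0 TPM). FGF19 made up 43.3% and 58.0% of the summed TPM of the 17 ligand genes found in the clones, and 28.6% in iNSLCs. FGF2 made up 8.54% and 10.3% in the clones, 22.0% in iNSLCs and 74.5% in fibroblasts. FGF17 was second in both clones (74.4 and 17.4 TPM). FGF7 could not enter this order. A count was seen for 14 and 16 of the 17 genes in the clones, 13 in iNSLCs and 8 in fibroblasts. Over all genes the fibroblast library, though the deepest, also had the fewest genes with a count (16218, against 17030 to 17555 in the other libraries).

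**Figure D4:**
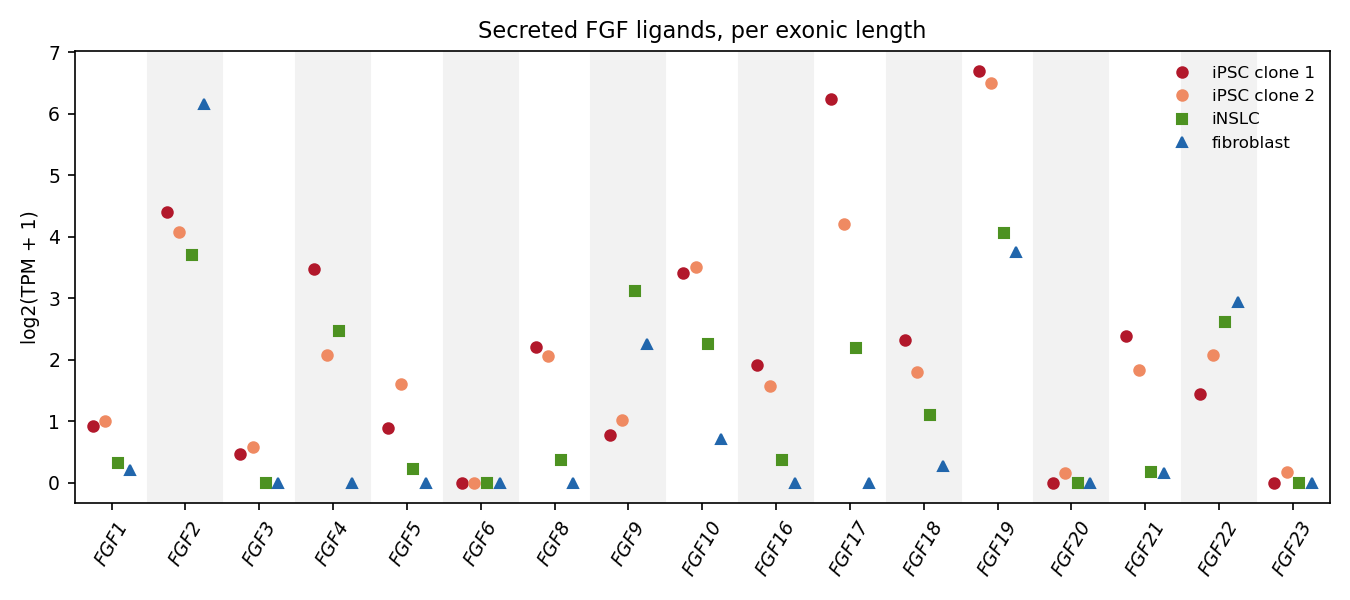
Level of 17 secreted FGF ligand genes per exonic length, as log2(TPM + 1), with 1 point per library (red and orange circles, iPSC clones 1 and 2; green squares, iNSLCs; blue triangles, fibroblasts). FGF19 was highest in the clones (102 and 89.8 TPM) and FGF2 in fibroblasts (70.0 TPM), and FGF7 is not shown because it had no row of its own.

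FGF3, FGF4 and FGF19 are neighbours on chromosome 2, in a cluster next to the cyclin gene CCND1, and they differed in level. FGF3 ended 26.3 kb before FGF4, and FGF4 ended 54.2 kb before FGF19. FGF19 was detected in all libraries, FGF4 in all but fibroblasts, and FGF3 in the iPSC clones alone, with 2 and 5 counts. CCND1, 32.6 kb beyond FGF19, had 249 and 281 CPM in the clones, 91.9 CPM in iNSLCs and 305 CPM in fibroblasts. LTO1, between FGF19 and CCND1, had 16.3 and 18.1 CPM in the clones, 15.9 CPM in iNSLCs and 19.2 CPM in fibroblasts. In iPSCs against fibroblasts, neither LTO1 (edgeR adjusted p = 0.514) nor CCND1 (edgeR adjusted p = 0.251) passed, but CCND1 rose in iPSCs relative to iNSLCs (log2 ratio 1.53 ± 0.15, edgeR adjusted p = 0.00519). ANO1, a chloride channel gene on the far side of FGF3, rose relative to fibroblasts (log2 ratio 3.51 ± 0.49, edgeR adjusted p = 0.00416) and to iNSLCs (log2 ratio 2.10 ± 0.45, edgeR adjusted p = 0.0313). These neighbours were chosen for their position.

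Of the 3 other FGF homologous factors, FGF14 rose in iPSCs relative to fibroblasts (log2 ratio 3.92 ± 0.58, edgeR adjusted p = 0.00508), and FGF11 and FGF12 did not pass. Against iNSLCs 0 of the 3 passed (1 at an unadjusted p of 0.05 in each direction, and 0 with DESeq2). FGF14 had 2.53 and 4.07 CPM in the clones, 7.19 CPM in iNSLCs and 0.216 CPM in fibroblasts. Unlike FGF13, it was thus highest in iNSLCs.

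Most coreceptors and binding proteins rose relative to fibroblasts. Of 11 measured, 8 rose in iPSCs and 0 fell by edgeR, where 29.6% of all genes rose and 27.5% fell, and the median log2 ratio was 2.25. The 8 include FLRT1, which had 0 fibroblast counts and entered the test through the other libraries. At an unadjusted p of 0.05, 1 was lower, and DESeq2 called 0 lower. Relative to iNSLCs 3 rose and 1 fell, against 14.1% of all genes in each direction. The median log2 ratio was -0.07 in iPSCs over iNSLCs and 3.28 in iNSLCs over fibroblasts. KLB, which encodes beta-Klotho and is needed with FGFR4 for FGF19 signalling, had 3.17 and 4.33 CPM in the clones, 4.01 CPM in iNSLCs and 0.324 CPM in fibroblasts (log2 ratio of iPSCs over fibroblasts 3.52 ± 0.52, edgeR adjusted p = 0.00489). N-cadherin (CDH2), which binds FGFR1, rose 12.1-fold relative to fibroblasts (edgeR adjusted p = 0.000641) but did not pass against iNSLCs (edgeR adjusted p = 0.576). FLRT1, a membrane protein that binds FGF receptors, had 1.73 and 5.31 CPM in the clones, at least 26.7-fold above the fibroblast floor of 3 counts in the lower clone (adjusted p = 0.00805, edgeR), whereas ANOS1, the anosmin gene, had 48 and 47 counts in the clones and 2 in fibroblasts. The decoy receptor FGFRL1 had 19.6 and 27.9 CPM in the clones, 6.42 CPM in iNSLCs and 9.14 CPM in fibroblasts and rose in both comparisons (edgeR adjusted p = 0.017 against iNSLCs and 0.0154 against fibroblasts). FLRT2 and FLRT3 also rose in iPSCs relative to iNSLCs (log2 ratios 2.40 ± 0.19 and 1.09 ± 0.18), and NCAM1, a neural adhesion molecule, fell by 1.30 ± 0.17.

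Of 22 genes for heparan sulphate proteoglycans and their enzymes, 6 rose and 9 fell in iPSCs relative to fibroblasts, beside 29.6% and 27.5% of all genes. Relative to iNSLCs 1 rose and 6 fell, beside 14.1% of all genes in each direction. The proteoglycan genes GPC2 and GPC3 rose relative to fibroblasts (log2 ratios 3.31 ± 0.31 and 2.86 ± 0.34), as did the sulphotransferase HS6ST2, with 114 and 143 counts in the clones and 2 in fibroblasts. Against iNSLCs GPC2, GPC3 and HS6ST2 did not pass. SDC2, a syndecan, fell by 2.74 ± 0.15 relative to fibroblasts. Relative to iNSLCs the extracellular sulphatase SULF2, the sulphotransferase HS6ST1 and the proteoglycans GPC1 and SDC3 fell by 1.16, 1.09, 1.05 and 0.93 on the log2 scale. Of 21 genes for receptor adaptors and the RAS-ERK cascade, 5 rose and 8 fell relative to fibroblasts, and 5 rose and 2 fell relative to iNSLCs, which is read against the same shares of all genes. PLCG1, the phospholipase that FGF receptors bind, rose relative to fibroblasts (log2 ratio 1.94 ± 0.13), and the ERK1 gene MAPK3 and the adaptor and exchange factor genes GAB1 and SOS2 fell (by 1.76, 1.79 and 1.30). PLCG1 did not pass against iNSLCs.

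The 15 feedback and target genes of the pathway summed to 1651 and 1605 CPM in the clones, 328 CPM in iNSLCs and 674 CPM in fibroblasts. Without a size rule, 11 were lower in iNSLCs than in fibroblasts and 4 were higher (DUSP4, IL17RD, DUSP5 and SPRED2, named after their values were seen). By the size of at least 4-fold with 1 CPM, 6 were lower and 2 higher, where 7.26% and 13.2% of all genes were. Of the 15, 14 rose in iPSCs relative to iNSLCs, where 14.1% of all genes did. Relative to fibroblasts 10 rose and 3 fell, beside 29.6% and 27.5% of all genes. Of the receptors given above, FGFR1, FGFR2 and FGFR3 did not differ at the threshold between iPSCs and iNSLCs, and FGFR4 was higher in iPSCs by edgeR. The ligand genes FGF8, FGF10 and FGF19 were also higher in iPSCs than in iNSLCs by edgeR. The cells differed in passage and medium too, with chemical inhibitors in the iNSLC medium, and no cause of the levels of the feedback genes was tested.

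The genes whose pattern over the 4 libraries was most like that of a receptor, by root mean square difference of centred log2(CPM + 1), were ZFP28 and ZNF263 for FGFR1 (0.00815 and 0.0101) and SMC5 and ZNF227 for FGFR2 (0.013 and 0.0167). For FGFR3 they were RWDD3 and DIDO1 (0.0525 and 0.053), and for FGFR4 B4GALNT3 and RGS4 (0.0999 and 0.115). Within a difference of 0.1 lay 164, 183 and 33 of 10239 genes for FGFR1, FGFR2 and FGFR3, but only 1 for FGFR4. With 4 libraries such likeness describes the libraries and no more.

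FGF7, the keratinocyte growth factor made by dermal fibroblasts, had no row of its own. Its RefSeq span on chromosome 1 (122215878 to 122278705) overlapped the row of GALK2 (ENSSSCG00000004651, 122215882 to 122526981, minus strand), a galactokinase gene. That row had 7054 exonic bases, of which 1999 (28.3%) lay in the FGF7 span. Whether these bases are exons of FGF7 was not checked. The row of FAM227B also covered the FGF7 span but had 0 exonic bases in it. The GALK2 row had 39.4 and 24.4 CPM in the iPSC clones, 42.0 CPM in iNSLCs and 356 CPM in fibroblasts, where it held 16488 counts. This row fell by 3.49 ± 0.29 on the log2 scale in iPSCs relative to fibroblasts (edgeR adjusted p = 0.000936) and did not pass against iNSLCs (edgeR adjusted p = 0.35). Any counts of FGF7 in it cannot be told apart from those of GALK2, so no level of FGF7 is given.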

How the data were processed

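The study sequenced RNA from 4 porcine cultures. Per the labels, the authors trimmed reads with Trim Galore 0.4.0, aligned them with STAR 2.5.3a and counted them per gene with featureCounts 1.5.2 on Sscrofa11.1, and deposited raw counts that are not normalized. The sources used here do not give the strand setting. The 25880 rows carry Ensembl identifiers. Of these, 14857 were named by identifier and 1671 by position in RefSeq, and 9352 stayed unnamed. The FGF genes and the pathway lists were chosen with earlier results of these data known.

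Genes were tested with edgeR 4.0.16 (R 4.3.3) by the quasi-likelihood test on TMM-scaled counts after filterByExpr, over 3 groups with 1 residual degree of freedom, adjusting p by Benjamini-Hochberg over 15739 genes (threshold 0.05). The SE was derived from the fold change and its F statistic and is approximate. No test was made between single libraries, for which exact binomial 95% intervals cover counting error only. Libraries under 3 counts were raised to 3 for folds. TPM was computed from counts and exonic length, and used only between genes of 1 library. Of each pathway list, up to 4 called genes with the largest log2 ratios were named, and for each receptor the 2 most alike genes of at least 10 CPM. Alternatives were DESeq2 1.42.0, size factors, total counts, other count filters and leaving out each clone. The code was tested on simulated data.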

Additional observations from a re-analysis of the deposited data

How the results depend on the processing

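The direction of every FGF gene's log2 ratio was kept under all alternatives run. Of 90 alternative tests of single FGF genes, 87 stayed on the same side of the threshold. With total counts, 7063 genes were called higher and 2645 lower in iPSCs relative to fibroblasts, against 4665 and 4326 with TMM, and FGFR2 (0.76) and FGFR3 (1.10) were added to the FGF genes called higher. With DESeq2, FGF8 lost its call in iPSCs against iNSLCs (log2 ratio 3.64). With a minimum of 10 CPM, 2 rather than 4 FGF genes passed the 4-fold size rule in iNSLCs against fibroblasts. By share of raw counts, FGFR1 held 48.4% of the receptors in iPSCs, 45.9% in iNSLCs and 38.8% in fibroblasts. Without either clone, the FGFR1 share of TPM in iPSCs was 41.2% to 44.1%. Values without a clone have no test, since no residual degree of freedom remains. No paired analysis was possible because only the iPSC group has more than a single library. FGF8 in iNSLCs and FGFR4 in fibroblasts, at 4 and 12 counts, are limited by depth.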
